A study of Mus musculus with 6 samples.

Results

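The genes described are 10 that encode the signalling chain of vomeronasal sensory neurons, taken from a list by their known roles: the G protein subunit genes Gnao1, Gnai2, Gnb1, Gnb2, Gng8 and Gng13, the cation channel gene Trpc2, the calcium-activated chloride channel genes Ano1 and Ano2, and the calcium-activated potassium channel gene Kcnn3. The list was chosen with earlier results of these data known. Its members are 10 of 35450 genes to which the deposited transcripts could be joined, and all 10 had enough reads to be tested. Vomeronasal organs of littermates aged 60 postnatal days had been profiled by poly(A) RNA sequencing with a directional library kit. The 3 wild-type mice (Cnpy1+/+) and the 3 Cnpy1 knockout mice (Cnpy1-/-) each comprised 2 males and 1 female: wild-type replicate 2 and knockout replicate 3 were female. Both organs of a mouse, freed of the outer bone, went into 1 library, so each library holds sensory neurons together with supporting cells, glands and vessels. The labels do not describe the knockout allele or the strain. The comparison asks which transcripts of the organ differ when Cnpy1, a gene of the Canopy family of endoplasmic reticulum proteins, is disrupted.

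In the vomeronasal organ, pheromone receptors of the V1R and V2R families act through heterotrimeric G proteins. Neurons of the apical layer carry V1Rs with the alpha subunit encoded by Gnai2, and neurons of the basal layer carry V2Rs with the alpha subunit encoded by Gnao1. Beta and gamma subunits released from the alpha subunit are thought to activate phospholipase C, whose product diacylglycerol gates the cation channel TRPC2. The calcium that enters then opens chloride channels of the anoctamin family and small-conductance potassium channels, which shape the electrical response.

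The libraries held 60969508 to 71670766 estimated reads. Expression is given as CPM, reads per gene relative to the TMM-scaled library total, for differences between genotypes, and as TPM, which takes account of transcript length, for levels of different genes. A gene is described as called where edgeR's quasi-likelihood F test gave a Benjamini-Hochberg adjusted p under 0.05 over all 16679 genes tested. Cnpy1 itself had a log2 fold change (knockout minus wild type) of -2.04, with 18542 to 24203 reads in wild type and 4021 to 5129 in the knockout, so every library matched its label and transcripts from the locus remained. No fit used the sex label, since each genotype had 1 female, except where stated. As the samples are whole organs, fewer cells of a type and less RNA per cell cannot be told apart in any result that follows.

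Of the 10 genes, Gnao1 alone was called, and it fell in the knockout. Across all genes tested, 0.761% were called in either direction and 0.683% were called lower. For 6 of the 10 genes (Gnao1, Gnb1, Gng8, Trpc2, Ano2 and Kcnn3) all knockout libraries lay below all wild-type libraries, which held for 8.95% of all genes tested. For Gnai2 all knockout libraries lay above all wild-type libraries, as for 7.22% of all genes. Gnb2, Gng13 and Ano1 overlapped between genotypes. In TPM, Gnb1 and Gnai2 overlapped too, which left 5 genes lower in every knockout and 0 higher (8.33% and 1.58% of all genes). The same 6 and Gnai2 had an unadjusted edgeR p under 0.05, where the share over all genes was 5.99% for lower and 4.55% for higher values. The median log2 fold change of the 10 genes was -0.24, beside 0.01 for all genes tested. The DESeq2 Wald test called 5 of the 10, all lower (Gnao1, Gng8, Trpc2, Ano2 and Kcnn3), where it called 2.45% of all genes, and limma-voom called Gnao1 alone, with 0.719% of all genes.

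**Figure D1:**
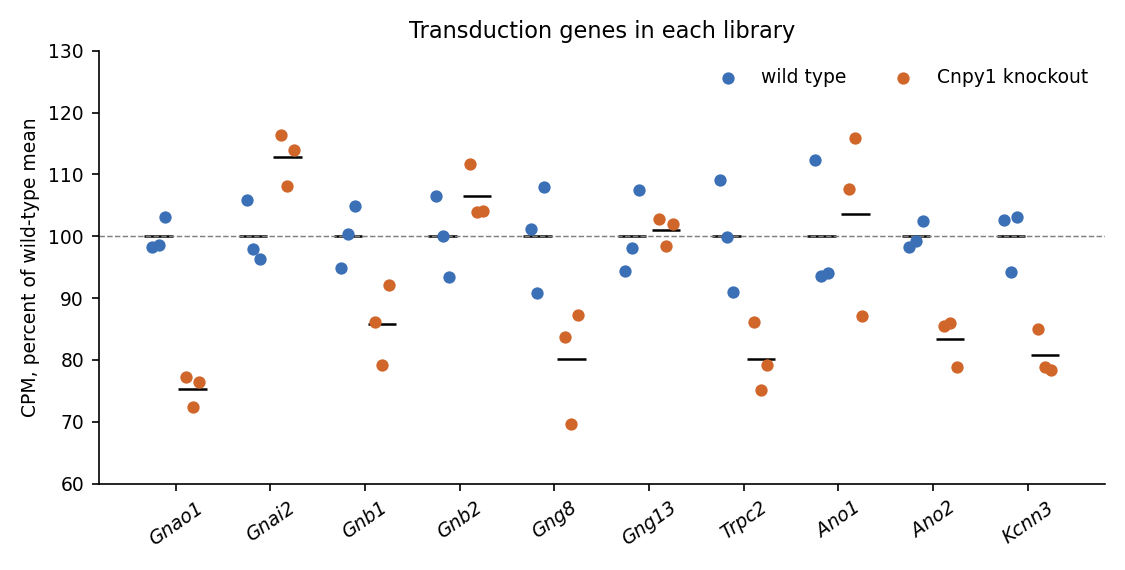
CPM of each transduction gene in each library, as a percent of the wild-type mean of that gene (linear vertical axis that starts above 0; points are single mice, black bars are group means, 3 mice per genotype). The knockout points of Gnao1 lie between 72.3% and 77.2%, and those of Gnai2 between 108% and 116%.

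The alpha subunit genes come first, because they mark the 2 neuron layers. Gnao1 encodes the alpha-o subunit of basal neurons and lies at chr8:93809966-93969388 (plus strand, GRCm38). Its expression was 305, 306 and 320 CPM in wild-type mice and 240, 225 and 237 CPM in knockouts. The highest knockout was thus well below the lowest wild type, and the spread within each genotype was small. Expression fell to 75.3% of the wild-type mean, from 310 ± 8.48 to 234 ± 8.09 CPM (SD, n = 3 each), with a log2 fold change of -0.41, with an SE of 0.05 and an edgeR adjusted p of 0.0143. The direction and size held in all 18 alternative analyses, between -0.49 and -0.38, but the call held in 8 of them. Leaving out single wild-type mice (replicates 1, 2 and 3) gave an edgeR adjusted p of 0.0829, 0.0854 and 0.0703, and leaving out knockout replicates 1 and 2 gave 0.0575 and 0.0620.

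The summed level of basal neuron markers did not overlap between the genotypes in TPM or in CPM. Summed over Tfap2e, Robo2 and Kirrel3, the basal markers came to 93.2 to 102 TPM in wild type and 78.6 to 89.9 TPM in the knockout. For 2 of these 3 markers all knockouts were below all wild types, and none was called by edgeR, DESeq2 or limma-voom, with 2 at an unadjusted edgeR p under 0.05. The V2R receptor genes summed to 1626 to 2063 TPM in wild type and 1114 to 1355 TPM in the knockout. None of the 3 markers had 0 reads, and their part in the difference of Gnao1 was not tested.

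Gnai2 (chr9:107614125-107635367, minus strand) encodes the alpha-i2 subunit of apical neurons, and is also expressed in many other cell types. It stood at 681, 630 and 620 CPM in wild-type mice and at 749, 696 and 734 CPM in knockouts. In CPM every knockout was above every wild type, although the gap between the lowest knockout and the highest wild type was narrow. In TPM the genotypes overlapped, with 423, 435 and 436 TPM in wild-type mice and 478, 403 and 513 TPM in knockouts. The CPM means were 644 ± 33.0 and 726 ± 27.4 CPM (SD, n = 3 each), and the log2 fold change of 0.17 (95% interval 0.03 to 0.32) was not called (edgeR adjusted p = 0.377). With limma on log2(TPM + 1) it was 0.10, where the median of all genes tested was -0.07. The summed markers of apical neurons overlapped, with 309 to 369 TPM in wild type and 240 to 367 TPM in the knockout, but in CPM they did not, with 747 to 833 in wild type and 697 to 741 in the knockout. Of the 5 apical markers (Meis2, Nrp2, Ncam2, Pde4a and Kirrel2) 2 were below 0 and 3 above 0 in log2 fold change. None was called by edgeR or limma-voom, and Kirrel2 was called lower by DESeq2 (adjusted p = 0.000171). Kirrel2, which encodes a cell adhesion protein, was lower in every knockout, with a log2 fold change of -0.61 (edgeR adjusted p = 0.143, unadjusted p = 0.00237 in the same fit). The lower CPM sum rested on this gene: the other 4 apical markers, summed without it after its value was seen, came to 492 to 498 CPM in wild type and 505 to 548 CPM in the knockout, with every knockout above every wild type. In TPM these 4 overlapped, with 174 to 215 TPM in wild type and 175 to 219 TPM in the knockout. The V1R genes summed to 1124 to 1497 TPM in wild type and 1113 to 1554 TPM in the knockout, and overlapped in both units. The part of apical neurons in the values of Gnai2 was not tested.

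Within a library, the ratio of Gnao1 reads to Gnai2 reads needs no scaling between libraries. It was 0.448, 0.485 and 0.516 in wild type and 0.320, 0.323 and 0.323 in the knockout. The knockout ratios were nearly identical to each other and all lay below the wild-type ratios. The difference was -0.58 on the log2 scale (two-sided exact permutation p = 0.1, the smallest that 3 against 3 mice allow, and 0.15 adjusted over the 6 ratios compared). The ratio depends on transcript length, so its value does not give the proportion of the 2 subunits.

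Gnao1 produces alternatively spliced messages that end in different pairs of coding exons and encode the textbook forms alpha-o-A and alpha-o-B, whose carboxy-terminal parts differ. In GENCODE M21, Gnao1-201 and Gnao1-203 carry the A pair and Gnao1-207 the B pair. The exons are printed because the transcripts can be separated through them. Sequences are the plus strand, 5′ to 3′, from GENCODE M21 (GRCm38), and capitals mark bases that differ between the aligned exons of equal length. Exon 7 of the A pair lies at chr8:93963384-93963537 and exon 7 of the B pair at chr8:93953975-93954128. The coding part of exon 8 lies at chr8:93966868-93967052 in the A pair and at chr8:93956065-93956249 in the B pair.
Gnao1-201 and Gnao1-203, exon 7: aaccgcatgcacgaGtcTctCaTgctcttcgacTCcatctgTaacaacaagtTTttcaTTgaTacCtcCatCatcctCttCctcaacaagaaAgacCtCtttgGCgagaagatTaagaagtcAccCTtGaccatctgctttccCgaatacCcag
Gnao1-207, exon 7: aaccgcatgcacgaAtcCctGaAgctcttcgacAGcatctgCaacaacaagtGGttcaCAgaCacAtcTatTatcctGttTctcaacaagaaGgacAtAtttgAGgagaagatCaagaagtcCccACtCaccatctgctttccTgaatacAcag
Gnao1-201 and Gnao1-203, coding part of exon 8: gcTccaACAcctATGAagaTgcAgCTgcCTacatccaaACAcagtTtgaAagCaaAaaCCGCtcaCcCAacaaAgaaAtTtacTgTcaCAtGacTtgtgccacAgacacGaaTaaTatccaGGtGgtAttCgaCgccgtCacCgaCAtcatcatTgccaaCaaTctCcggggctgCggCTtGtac
Gnao1-207, coding part of exon 8: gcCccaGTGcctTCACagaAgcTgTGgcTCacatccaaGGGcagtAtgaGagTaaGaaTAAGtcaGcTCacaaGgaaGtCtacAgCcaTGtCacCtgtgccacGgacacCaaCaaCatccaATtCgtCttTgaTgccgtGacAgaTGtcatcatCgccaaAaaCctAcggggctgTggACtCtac
The 154 bases of exon 7 differ at 29 positions (81.2% identity), and the 185 coding bases of exon 8 at 59 positions (68.1% identity), so that reads over these exons can be told apart.

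The summed transcripts with the A pair of exons were lower in every knockout, whereas no change was called for Gnao1-207. Gnao1-201 with Gnao1-203 measured 271, 270 and 286 CPM in wild-type mice and 208, 194 and 207 CPM in knockouts, without overlap. Fitted among the genes and adjusted over genes, their sum had a log2 fold change of -0.44, with an SE of 0.06 and an edgeR adjusted p of 0.0112. Gnao1-201 and Gnao1-203 held 43.6% and 44.1% of the Gnao1 reads over the 6 libraries. The call of their sum is therefore not separate from that of the gene, and it was not checked in the alternative analyses. Gnao1-207 measured 20.7, 25.3 and 19.5 CPM in wild-type mice and 22.5, 21.1 and 19.5 CPM in knockouts, and the groups overlapped. Its log2 fold change of -0.05 had a 95% interval of -0.29 to 0.19 (edgeR adjusted p = 0.923), which leaves out the value of the A pair. The share of Gnao1-207 among reads of these 3 transcripts was 7.11%, 8.57% and 6.36% in wild type and 9.78%, 9.82% and 8.62% in the knockout. All knockouts had the larger share, the closest libraries being knockout replicate 3 and wild-type replicate 2, the females (p = 0.1 by a two-sided exact permutation test, its smallest value). The grouping by exon pair was chosen after the values had been seen. As single transcripts, adjusted over all 43405 transcripts tested, Gnao1-201 had -0.47 (edgeR adjusted p = 0.0669) and Gnao1-203 -0.41 (edgeR adjusted p = 0.112), neither of which was called. Of 73 annotated transcripts of the 10 genes, 46 were tested and 0 were called by edgeR, beside 0.108% of all transcripts tested, and 10 had an unadjusted edgeR p under 0.05, which held for 5.04% of all transcripts. For 9 of the 46 all knockout libraries lay below all wild-type libraries, against 6.33% of all transcripts.

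**Figure D2:**
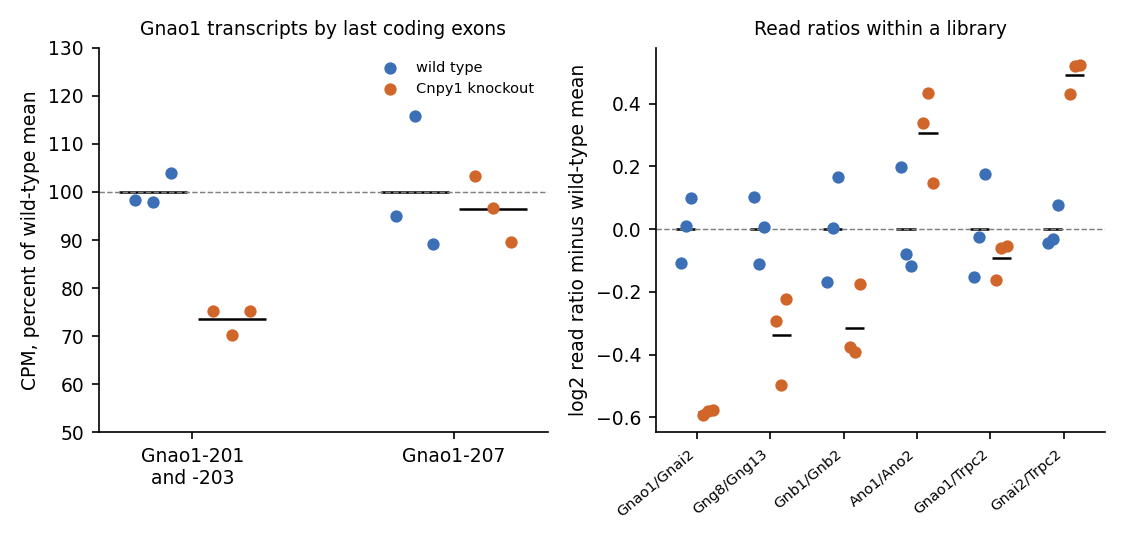
Left, CPM of Gnao1 transcripts grouped by their last coding exons, as a percent of the wild-type mean (axis starts above 0); right, log2 read ratios of gene pairs within a library, minus the wild-type mean of that ratio. Points are single mice and black bars group means (3 per genotype); the knockout points of Gnao1-201 with Gnao1-203 and of the Gnao1 to Gnai2 ratio lie apart from wild type, those of Gnao1-207 do not.

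The beta subunit genes Gnb1 and Gnb2 encode the partners of the alpha subunits and are expressed in most cells. Gnb1 (chr4:155491361-155559269, plus strand) had 1978, 2094 and 2187 CPM in wild-type mice and 1796, 1653 and 1923 CPM in knockouts. All knockouts were lower in CPM, with knockout replicate 3 close to wild-type replicate 1, and in TPM it was above it (928 against 852 TPM). The log2 fold change was -0.22, with an SE of 0.08 and an edgeR adjusted p of 0.353, not called. Gnb2 (chr5:137528127-137533510, minus strand) had 204, 192 and 179 CPM in wild-type mice and 214, 199 and 199 CPM in knockouts, so the groups overlapped. Its log2 fold change of 0.09 had a 95% interval of -0.06 to 0.24 (edgeR adjusted p = 0.704), and it ranged from 0.044 without wild-type replicate 3 to 0.14 without wild-type replicate 1. With limma on log2(TPM + 1) it was 0.020. The ratio of Gnb1 to Gnb2 reads was 9.71, 10.9 and 12.2 in wild type and 8.40, 8.31 and 9.66 in the knockout, without overlap, a log2 difference of -0.31 (exact permutation p = 0.1, adjusted 0.15).

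The gamma subunit gene Gng8 is enriched in vomeronasal neurons, and Gng13 is shared with taste and main olfactory cells. Gng8 (chr7:16891786-16895436, plus strand) was at 133, 120 and 142 CPM in wild-type mice and at 110, 91.7 and 115 CPM in knockouts. The knockouts were all lower, and replicate 2 was the lowest of each genotype. The log2 fold change was -0.32, with an SE of 0.10 and an edgeR adjusted p of 0.294, not called. Gng8 was called in 2 of 18 alternatives. These were DESeq2 (adjusted p = 0.0496) and edgeR with the replicate number as a block (adjusted p = 0.0440). Gng13 (chr17:25717171-25719406, plus strand) was at 41.5, 43.2 and 47.3 CPM in wild-type mice and 45.2, 43.3 and 44.8 CPM in knockouts. These values overlapped throughout, with a log2 fold change of 0.02 and a 95% interval of -0.12 to 0.15 (edgeR adjusted p = 0.963), and the sign turned in 5 of 18 alternatives. The ratio of Gng8 to Gng13 reads was 3.00 ± 0.220 in wild type and 2.37 ± 0.229 in the knockout (SD, n = 3 each), a log2 difference of -0.34 with no overlap (exact permutation p = 0.1, adjusted 0.15).

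The annotation bears on both gamma genes. Gng8-205, annotated as a retained intron and not as a coding transcript, took 93.2% ± 0.617 of the Gng8 reads in wild type and 92.8% ± 0.724 in the knockout (SD, n = 3 each). Of the 31-base words of Gng13 transcripts, 46.2% also occur in the neighbouring gene Chtf18, which had 1.77 ± 0.0993 CPM in wild-type mice and 2.35 ± 0.165 CPM in knockouts (SD, n = 3 each). Chtf18 lies on the minus strand, opposite to Gng13, and the words were compared on either strand. The library kit was directional, but the strand setting of the quantification is not known here. Whether the shared words affected the Gng13 values was not tested.

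Trpc2 encodes the cation channel of the transduction pathway in both neuron layers and lies at chr7:102083116-102096396 (plus strand). It was measured at 340, 311 and 284 CPM in wild-type mice and at 268, 234 and 247 CPM in knockouts. All knockouts were lower, but the highest knockout was close to wild-type replicate 3. The log2 fold change was -0.32, with an SE of 0.08 and an edgeR adjusted p of 0.197, not called by edgeR and called by DESeq2 (adjusted p = 0.00915). The locus also holds Xntrpc, a read-through gene at chr7:102065713-102096864 whose transcript Xntrpc-202 shares both boundaries of 11 of the 13 Trpc2-201 exons, and begins the last exon at the same base but ends it 468 bases further on. Only 1.02% of the 31-base words of Trpc2 are its own, and Xntrpc received 22.3% to 28.4% of the joint reads. With both genes summed, expression was 414 ± 39.6 CPM in wild-type mice and 336 ± 24.1 CPM in knockouts (SD, n = 3 each), for a log2 fold change of -0.30, with an SE of 0.09 and an edgeR adjusted p of 0.243.

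Each alpha subunit gene was also set against Trpc2, which both neuron layers express. The Gnao1 to Trpc2 read ratio was 0.898, 0.982 and 1.13 in wild type and 0.893, 0.958 and 0.961 in the knockout, and these overlapped (log2 difference -0.09, exact permutation p = 0.4). Single libraries moved this difference, to -0.0031 without wild-type replicate 3, to -0.057 without knockout replicate 1 and to -0.17 without wild-type replicate 1. The Gnai2 to Trpc2 ratio was 2.01, 2.02 and 2.18 in wild type and 2.79, 2.97 and 2.97 in the knockout. Here every knockout was above every wild type (log2 difference 0.49, exact permutation p = 0.1, adjusted 0.15).

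Of the chloride channel genes, Ano2 had lower values in every knockout, while the genotypes overlapped for Ano1. Ano2 (chr6:125690419-126040126, plus strand) had 92.2, 93.1 and 96.1 CPM in wild-type mice and 80.1, 80.6 and 74.0 CPM in knockouts. The libraries of each genotype were close together and did not overlap. Its log2 fold change was -0.26, with an SE of 0.06 and an edgeR adjusted p of 0.107. Ano1 (chr7:144588549-144751974, minus strand) had 137, 114 and 115 CPM in wild-type mice and 132, 142 and 106 CPM in knockouts. Both genotypes spanned nearly the same range, with a log2 fold change of 0.05 and a 95% interval of -0.22 to 0.31 (edgeR adjusted p = 0.932). The ratio of Ano1 to Ano2 overlapped (1.30 ± 0.161 and 1.61 ± 0.161, SD, n = 3 each, exact permutation p = 0.2). Ano1 is also a chloride channel of secretory gland cells. The 3 libraries with the most Ano1 (knockout replicate 2, wild-type replicate 1 and knockout replicate 1) were those with the largest sums of 6 gland markers, which ranged from 205321 to 281665 TPM in wild type and from 221050 to 314470 TPM in the knockout. The odorant-binding protein genes Obp2a and Obp2b made up 98.2% to 99.0% of these sums. The other gland markers (Aqp5, Obp1a, Bpifa1 and Bpifb1) did not follow that order, with a sum of 2998 to 3795 TPM that was lowest in knockout replicate 2. DESeq2 called Aqp5 (0.27) and Bpifb1 (3.06) higher in the knockout, and edgeR called none of the 6. The part of gland tissue in the Ano1 values was not tested.

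Kcnn3, which encodes a small-conductance calcium-activated potassium channel (chr3:89520164-89675132, plus strand), had 29.2, 26.8 and 29.4 CPM in wild-type mice and 24.2, 22.5 and 22.3 CPM in knockouts. The highest knockout lay below the lowest wild type. The means were 28.5 ± 1.42 and 23.0 ± 1.04 CPM (SD, n = 3 each), and the log2 fold change was -0.31, with an SE of 0.07 and an edgeR adjusted p of 0.107. Most of its reads (80.2% over the 6 libraries) were assigned to Kcnn3-202, which is annotated as a retained intron.

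**Figure D3:**
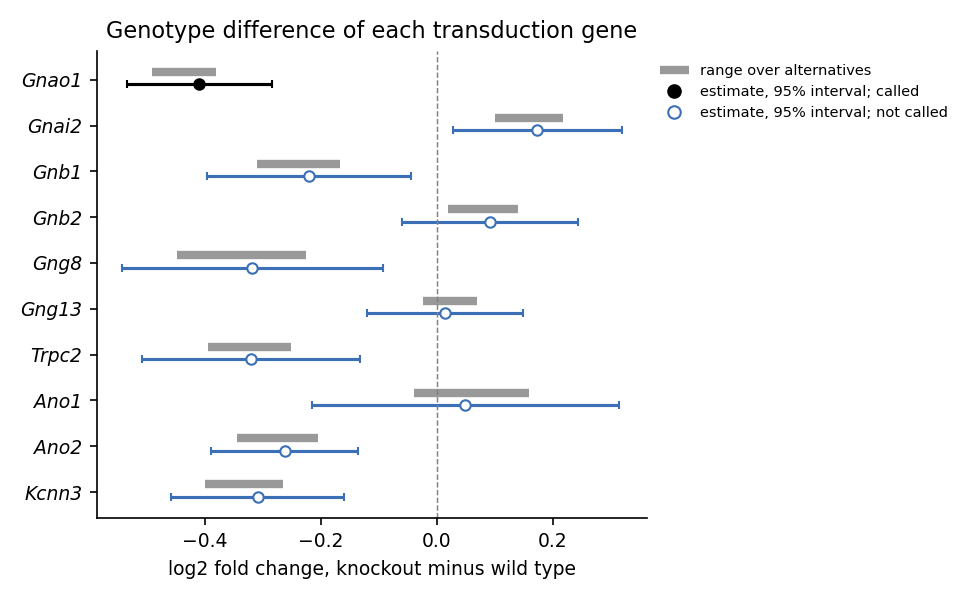
Log2 fold change, knockout minus wild type, of each transduction gene: circles are edgeR estimates with 95% intervals (filled where called), grey bars the range of the estimate over the alternative analyses. Gnao1 is the one filled circle, at -0.41, and the bars of Gng13 and Ano1 cross 0.

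Markers of mature neurons had values in the direction of the 6 genes that were lower in every knockout. Of the 7 mature neuron markers (Omp, Ncam1, Carns1, Snap25, Uchl1, Syt1 and Stmn3), 7 had a log2 fold change below 0, with a median of -0.21. Over all genes tested, 47.7% were below 0. None of the 7 was called by edgeR or limma-voom, 3 were called by DESeq2, and 5 had an unadjusted edgeR p under 0.05. Over all genes, DESeq2 called 2.45% in either direction, and 5.99% were lower at an unadjusted edgeR p under 0.05. Their summed level was 1550 to 1849 TPM in wild type and 1191 to 1476 TPM in the knockout, without overlap. Omp, a marker of mature chemosensory neurons, had -0.31 (edgeR adjusted p = 0.203). The progenitor and immature neuron markers were above 0 in 7 of 7, beside 8717 of all 16679 genes tested. Top2a was called by edgeR (0.40, adjusted p = 0.0421) and Top2a and Mki67 by DESeq2, and the summed levels of these markers overlapped. No listed marker of these types had 0 reads, and their part in the differences of the transduction genes was not tested.

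Per length, the wild-type levels covered a wide range. Gnb1 was the highest with 972 ± 111 TPM, followed by Gng8 with 452 ± 44.1 and Gnai2 with 431 ± 7.38 TPM (SD, n = 3 each). Gng13 had 217 ± 36.9 and Gnb2 206 ± 13.2 TPM, Trpc2 152 ± 6.0 and Gnao1 148 ± 12.3 TPM. Ano2 had 51.0 ± 3.02 and Ano1 50.9 ± 3.86 TPM, and Kcnn3 was the lowest with 6.47 ± 0.432 TPM. The ranges of Gng8 and Gnai2 overlapped, as did those of Gng13 and Gnb2, of Trpc2 and Gnao1, and of Ano2 and Ano1, so the order within each of these pairs is not settled. In the knockout the means were 789 ± 139 TPM for Gnb1, 465 ± 56.0 for Gnai2, 348 ± 65.2 for Gng8 and 105 ± 13.3 for Gnao1 (SD, n = 3 each).

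**Figure D4:**
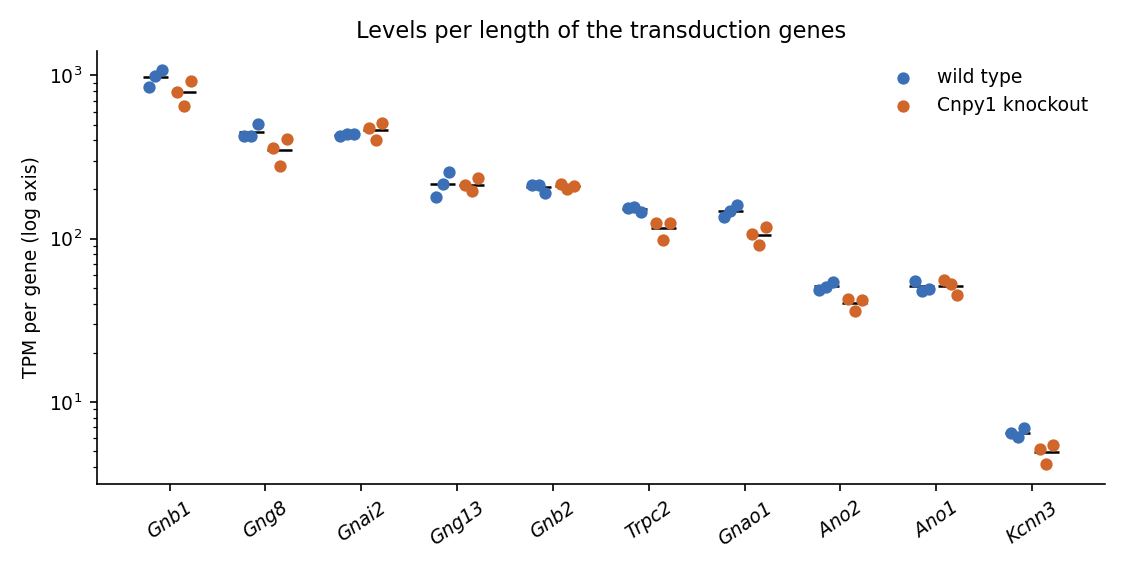
TPM summed per gene in each library on a log axis, with genes in the order of their wild-type mean (points are single mice, black bars group means, 3 mice per genotype). Gnb1 stands highest and Kcnn3 lowest, and the neighbours Gng8 and Gnai2, Gng13 and Gnb2, Trpc2 and Gnao1, and Ano2 and Ano1 overlap in wild type.

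Whether the genotype difference of a gene itself differed between the sexes was tested with an interaction term. Over all genes 4 were called (0.024% of those tested), and none was a transduction gene. None of the 10 genes, against 4.5% of all genes, had an unadjusted interaction p under 0.05 in the edgeR fit. The lowest adjusted value was that of Gng8 (edgeR adjusted p = 0.958). With 1 female in each genotype, sex and single animal cannot be told apart.

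The other genes of the pathway were taken from a list of 134, of which 128 were tested. None was called by edgeR or limma-voom, and 1 (Rgs20) by DESeq2, which called 2.45% of all genes. At an unadjusted edgeR p under 0.05 there were 8 lower and 8 higher of the 128, close to the shares over all genes (5.99% lower and 4.55% higher), and the median log2 fold change was 0.00. Among the 23 other G protein subunit genes, the median was 0.06. Gnat3, the alpha subunit of taste and solitary chemosensory cells, had the largest value (0.35, edgeR adjusted p = 0.449) and the gamma subunit gene Gng3 the smallest (-0.24, edgeR adjusted p = 0.524). The 27 regulators of G proteins had a median of 0.01 and ranged from Rgs20 to Rgs16. Rgs20, which speeds the hydrolysis of GTP by alpha subunits of the Gi family, was at 62.4 ± 3.49 CPM in wild-type mice and 48.6 ± 3.00 CPM in knockouts (SD, n = 3 each), without overlap. Its log2 fold change of -0.36 had an edgeR adjusted p of 0.0563, and Rgs16 had 0.43 (edgeR adjusted p = 0.431).

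In the later steps, the 25 phospholipase, IP3 receptor and diacylglycerol enzyme genes had a median of 0.07. The IP3 receptor gene Itpr3 had 0.28 (edgeR adjusted p = 0.440) and the phospholipase gene Plcb2 -0.35 (edgeR adjusted p = 0.276). The 22 tested genes of calcium handling and TRPC2 partners had a median of -0.03, from Enkur, which encodes a partner of TRPC channels (-0.16, edgeR adjusted p = 0.610), to the calcium pump gene Atp2a3 (0.28, edgeR adjusted p = 0.742). The 31 tested genes of other channels and chloride transporters had a median of -0.04. Among those with at least 1 CPM, the potassium channel genes Kcnj5 (-0.50, edgeR adjusted p = 0.615) and Kcnn4 (0.44, edgeR adjusted p = 0.537) had the extreme values and overlapped between genotypes.

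**Figure D5:**
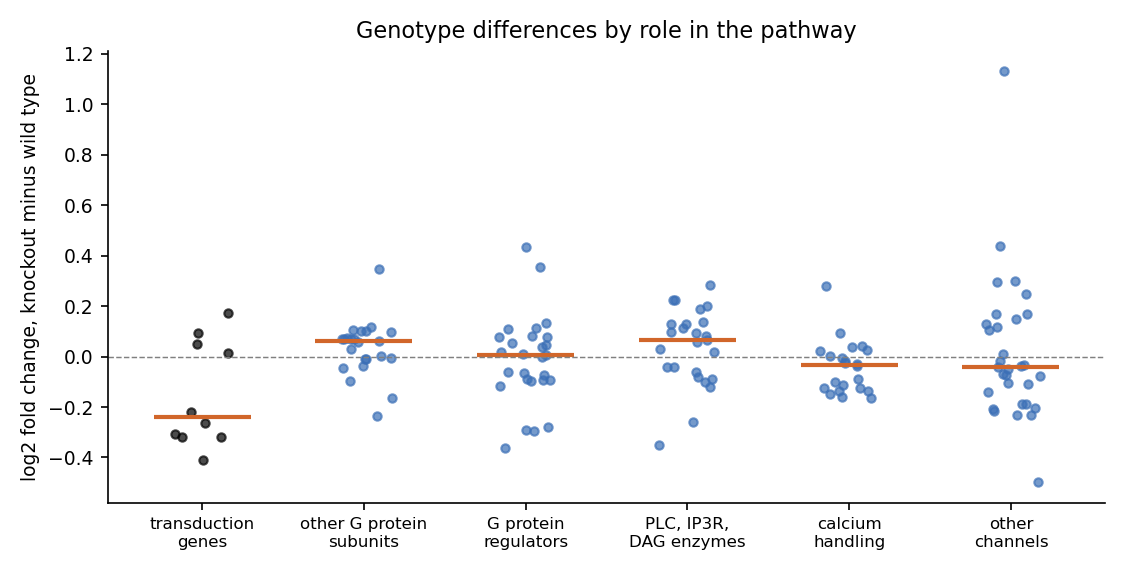
Log2 fold change, knockout minus wild type, of the 10 transduction genes (black) and of the tested genes of the other pathway lists (blue), each point being 1 gene and each orange bar the median of a list; horizontal spread within a list is only for legibility. The median lies at -0.24 for the transduction genes and between -0.04 and 0.07 for the other lists; the highest point, at 1.13, is Ano7, with a mean of 0.473 CPM.

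Genes most like 3 of the members over the 6 libraries were sought among 10792 genes with at least 10 CPM, by the root mean square (RMS) difference of log2 CPM after centring each gene on its mean. Gnao1 was closest to Scg3 (RMS 0.0201), Stk32a (0.0293) and 9530077C05Rik (0.0307), where the median over all genes compared was 0.224. Scg3 encodes a secretogranin of secretory granules. Gnai2 was closest to Sorcs2 (0.0105), Uhrf1bp1 (0.0213) and Sidt2 (0.0242), and Trpc2 to Tmprss6 (0.0357), Pgghg (0.0426) and Pcdhga11 (0.0431). Among the other 9 transduction genes the nearest to Gnao1 was Kcnn3 (0.0699), the nearest to Trpc2 also Kcnn3 (0.0934), and the nearest to Gnai2 was Gnb2 (0.0527). By closeness among the genes compared, these ranked 47 for Gnao1, 100 for Trpc2 and 141 for Gnai2.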

How the data were processed

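Poly(A) RNA of vomeronasal organs from 3 wild-type and 3 Cnpy1 knockout mice had been sequenced, and groups, replicate numbers and sexes came from the labels. For each library the authors deposited a table of 117081 transcripts with lengths, estimated counts and TPM values, per the file headers. Trim Galore 0.6.6, Salmon 1.9.0 and DESeq2, and the builds mm10 and GRCm38, are named in the submitters' processing notes; the index and settings are not given in the sources used here. A quantifier of this kind divides reads among transcripts that share sequence, which makes single transcripts less certain than genes.

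Transcripts were joined by identifier to GENCODE M21 (GRCm38), and 115942 matched; the other 1139 held 0.304% of reads and were left out. Estimated counts were summed per gene and rounded. edgeR 4.0.16 (R 4.3.3) was used with TMM scaling, the filterByExpr filter, a model of genotype alone and adjustment by Benjamini and Hochberg; SE is the log2 fold change divided by the square root of F. The common biological coefficient of variation was 12.8%. Transcripts were fitted in the same way. Deposited TPM were summed per gene for levels and for limma 3.58.1 alternatives with a pseudocount of 0.1 or 1. Ratios were compared by two-sided exact permutation tests. Other alternatives were DESeq2 1.42.0, limma-voom, RLE or no scaling, low counts kept, a sex term, the replicate number as a block, males only, robust estimates and leaving out libraries. Python 3.11.15 with numpy 2.4.6, pandas 2.3.3 and matplotlib 3.10.9 was used for joining, shared 31-base words and plots.

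Named were the 10 genes, called genes of the pathway list or else the extremes of each of its 5 lists with a mean of at least 1 CPM, and the 3 genes closest to Gnao1, Gnai2 and Trpc2. The members and all lists were chosen with earlier results of these data known. The marker lists were apical, basal, mature and immature neurons, glands, and others whose summed levels overlapped between genotypes in TPM and in CPM (main olfactory neurons, solitary chemosensory cells, supporting cells, smooth muscle and vessels, glia, immune, ciliated, erythroid, and cartilage and bone cells). Libraries came from separate mice.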

Additional observations from a re-analysis of the deposited data

How the results depend on the processing

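The number of genes called was 127, and it was 409 with DESeq2, 76 in males only, 79 with limma on log2(TPM + 0.1) and 79 on log2(TPM + 1), 69 to 96 when 1 library was left out, and 84 without replicate 3 of both genotypes, an alternative added after seeing the data. Of the transduction genes, 1 was called in the reported fit and 5 with DESeq2, 0 without scaling factors, 0 in males only, 0 with limma on either TPM scale, 0 or 1 when 1 library was left out, and 0 without replicate 3 of both genotypes. The share of all genes called ranged from 0.409% to 2.45%, and the unadjusted p stayed under 0.05 for 5 to 7 of the 10 in these analyses. In the pathway list 1 gene, Rgs20, was called with DESeq2, with low counts kept, with the replicate block and with robust estimates. The interaction with sex gave 7 genes without scaling factors and 22 with low counts kept, against 4. By CPM in place of TPM, 4 of the 10 genes kept their rank of level. Gng13 turned sign without scaling factors (-0.017), in males only (-0.0047), with limma on TPM (-0.0072 on both scales) and without wild-type replicate 1, its range being -0.024 to 0.070 when 1 library was left out. Ano1 ranged from -0.039 (without knockout replicate 2) to 0.16, and Gnao1-207 from -0.13 to 0.082 (without wild-type replicate 2), with 0.0018 without knockout replicate 3. The cause of these differences was not tested. Fits on fewer libraries or on TPM also tested other numbers of genes.

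The replicate numbers were not taken to pair the animals, since the labels do not say that a number pairs them. Deviations from the group means correlated at 0.407, -0.116 and 0.357 for numbers 1, 2 and 3. Replicates 1 and 3 of the knockout and of the wild type each correlated best with their own number. These correlations do not settle whether the numbers pair animals. Wild-type replicate 2 had its highest correlation with knockout replicate 3 (0.0968), and knockout replicate 2 with wild-type replicate 1 (0.333). With the replicate number as a block, 154 genes were called, among them 2 transduction genes, Gnao1 (adjusted p = 0.0240) and Gng8 (edgeR adjusted p = 0.0440). No member transcript was called in the reported fit.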

Other observations

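For the Gnb1 and Gnb2 transcripts that follow, estimated reads set replicate 3 of both genotypes apart from the other libraries. Other transcripts did not show this. Gnao1-201 took 43.8%, 44.7% and 45.2% of the Gnao1 reads in wild-type replicates 1 to 3 and 42.6%, 42.7% and 42.7% in knockout replicates 1 to 3. Gnb1-208, a coding transcript of Gnb1, had 1183, 6175 and 23406 reads in wild-type replicates 1 to 3 and 0, 459 and 16016 in knockout replicates 1 to 3. Gnb1-203 took 20.2%, 15.3% and 5.32% of the Gnb1 reads in wild type and 21.2%, 20.3% and 8.42% in the knockout, in the same order. Gnb2-213, annotated as a retained intron, had 971, 482 and 0 reads in wild type and 678, 1036 and 0 in the knockout.

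Of the Ano2 reads, 66.8% over the 6 libraries were assigned to the coding transcript Ano2-204 and 25.2% to Ano2-202, which is annotated as a target of nonsense-mediated decay. Ano2-204 had a log2 fold change of -0.24 (edgeR adjusted p = 0.939) and Ano2-202 one of -0.37 (edgeR adjusted p = 0.383). Gnai2-201 and Gnai2-202, both coding, held 89.0% and 10.9% of the Gnai2 reads and had log2 fold changes of 0.16 and 0.34 (edgeR adjusted p = 0.925 and 0.543).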
